A study of Mus musculus with 9 samples.

Results

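Rab GTPases, proteins of the Tbc1d family and Golm1, the gene that encodes GP73, were examined in mouse livers on 9 Agilent arrays with 1 colour. They were chosen by name alone, as the probes that the array design assigns to Golm1, to a Rab with a number, or to a Tbc1d gene with a number. The rule gave 185 probes of 91 gene names, out of 56605 probes of 37074 names on the array: 113 probes of 59 Rab names, 71 probes of 31 Tbc1d names and 1 probe of Golm1. The Tbc1d names include Tbc1d22bos, an RNA from the opposite strand of Tbc1d22b and not a Tbc1d protein.

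All 9 livers came from male mice. The labels give 12 months as the age, while the study's text gives the same span as the time after injection or on the diet, and which is meant was not settled here. In all groups every mouse had received an adeno-associated virus (AAV) through a vein. AAV-V mice (n = 3) carried the vector with no insert and ate a normal diet. AAV-GP73 mice (n = 3) carried the vector with GP73 and ate the same diet. AAV-V HFD mice (n = 3) carried the empty vector and ate a high-fat diet (HFD). Per the study's methods the virus was directed to hepatocytes and encoded mouse GP73, so that other liver cells were not meant to express it. The labels do not say whether each array is 1 mouse or a pool, and p values then measure the spread between these arrays.

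Rab GTPases are switches on the membranes of the secretory and endocytic routes. They bind GTP when active, recruit effectors that tether or move vesicles, and return to the inactive form when a GTPase-activating protein (GAP) speeds GTP hydrolysis. Most Rab GAPs share the TBC domain, and exchange factors (GEFs) reload the Rab with GTP. In hepatocytes these routes carry lipoproteins and plasma proteins out of the cell. GP73 is a membrane protein of the Golgi, and the study describes it as a GAP with a TBC domain, which is why Rab and TBC genes are of interest here. Arrays measure RNA and say nothing of the activity of a GTPase.

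The probes that the results turn on are shown here by 30 of their 60 bases, from the array files, written 5′ to 3′. Coordinates of whole probes are those of the array files on mm9, and positions in a transcript are the first base of the probe as the files give it. Golm1 is shown because it encodes GP73, although its probe does not check the labels, as given among the results. Capitals, where present, mark AATAAA, the common polyadenylation signal.
Golm1, base 3524 of its transcript, chr13:59736466-59736525, minus strand: gcagtgtgatgtggttttccttcaactgca
Tbc1d8 and Tbc1d22b each had a probe with signal in all groups and another that was not detected.
Tbc1d8, base 3771, chr1:39428949-39429008, minus strand, detected: cagtgtttctgttgtgatcctgatagtgag
Tbc1d8, base 3455, chr1:39430160-39430219, minus strand, not detected: agttcctgtcaagtattagcttattctttt
Tbc1d22b, base 3423, chr17:29743686-29743745, plus strand, detected: agtagcctccttcactctctgaccctccct
Tbc1d22b, base 3532, chr17:29743781-29743840, plus strand, not detected: gaatggactgtaAATAAAtggtgtttcctc
Tbc1d31 was detected on all 9 arrays by 1 probe and on none by 4 others, of which 1 is given.
Tbc1d31, base 3405, chr15:57793758-57793817, plus strand, detected: tgagaacagacgcaaagaggtcgaagtgtt
Tbc1d31, base 3256, chr15:57801562-57801621, plus strand, not detected: ggaatctttcacAATAAAgatttttggaaa
The next pair of probes had the highest least fold changes in AAV-GP73, given with their limits among the results.
Rab43, base 4531, chr6:87738861-87738920, minus strand: gttgccttcctggatatgtcagagacagtg
Rab9, base 1267, chrX:162895305-162895364, minus strand: tgtaattcagacgacaaccttggctattct
Rab proteins are alike in sequence, and in the last pair shown capitals mark a run of 11 bases that probes of Rab1 and Rab2a share.
Rab1, base 233, chr11:20123100-20123159, plus strand: atcacttccagtTATTACAGAGGagcccat
Rab2a, base 420, chr4:8505117-8505176, plus strand: atcacacggtcaTATTACAGAGGtgcagcg
Such likeness was limited. Over 16877 pairs of probes of different genes among the 185, the longest shared run was 14 bases, in 4 pairs (Rab1b and Rab4b, Rab3a and Rab3c, Rab9 and Rab11b, and Tbc1d13 and Tbc1d24), and the highest identity without gaps was 78.2% over 55 bases, between Rab3a and Rab3c. Of those probes only that of Rab9 was tested. Between probes that were tested it reached 60.6% over 33 bases (Rab9 and Rab8a).

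Most of the family could not be seen in these livers. A spot counts as detected below when Feature Extraction, the scanner's software, marks it well above background. Of the 185 probes, 138 (74.6%) were detected on no array, against 80% of all probes on the array, and 54 of the 91 names had no detected probe. Detection was more common for Rab genes, with 76 of 113 probes (67.3%) never detected, than for Tbc1d genes, with 61 of 71 (85.9%). Detection of Rab probes also differed between the groups. On the 3 AAV-V arrays 1, 0 and 0 Rab probes were detected, on the AAV-GP73 arrays 26, 29 and 35, and on the AAV-V HFD arrays 28, 29 and 16. AAV-V lay below both other groups in this number, and those overlapped. For Tbc1d probes the numbers were 3, 5 and 3 on AAV-V, 5, 3 and 6 on AAV-GP73 and 7, 5 and 4 on AAV-V HFD, and the groups overlapped. Of all non-control spots, between 10.2% and 10.7% were detected on AAV-V arrays, between 16% and 18.4% on AAV-GP73 and between 13.8% and 16.7% on AAV-V HFD. Over the 2667 probes detected on all 9 arrays, the AAV-V arrays were also dimmer. Their 75th percentile of log2 signal lay between 6.48 and 6.71, against 7.99 to 8.35 on AAV-GP73 and 7.61 to 8.34 on AAV-V HFD. The spike-in control spots did not share this difference. Their mean log2 signals were 7.79, 7.87 and 8.34 on AAV-V, 7.87, 7.83 and 7.88 on AAV-GP73 and 8.17, 8.2 and 7.97 on AAV-V HFD. The part of the dimmer AAV-V signal in the detection of Rab probes was not tested. With 3 arrays against 3, no exact permutation p can lie below 0.1.

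**Figure D1:**
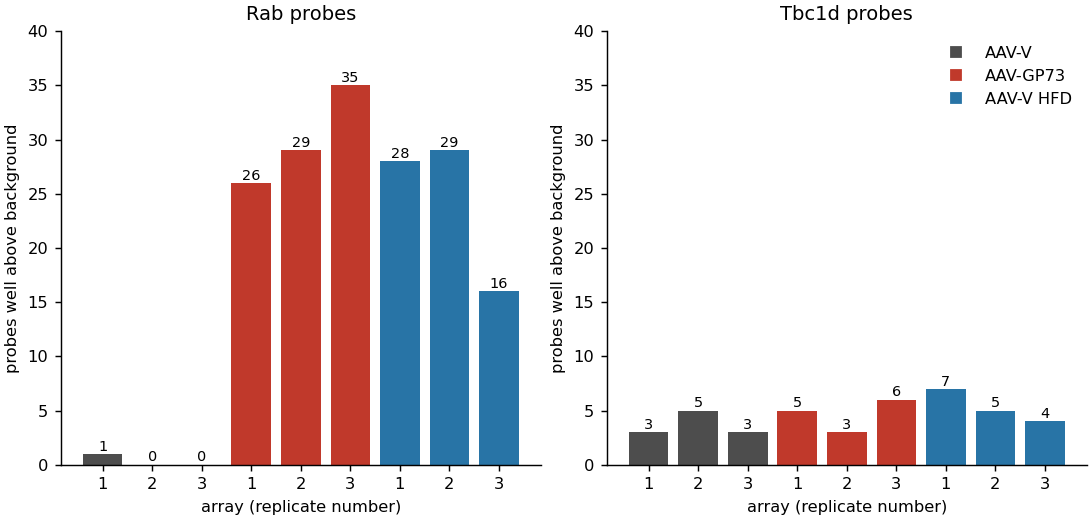
Number of Rab probes (left, of 113) and Tbc1d probes (right, of 71) well above background on each of the 9 arrays, 1 bar per array. Rab probes were detected 0 or 1 at a time on AAV-V arrays and 16 to 35 at a time on the other arrays, while the Tbc1d numbers overlapped between groups.

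For comparison between groups, processed signals were put on the log2 scale and every array was moved so that its 75th percentile, taken over the 2667 probes just described, became the same. The 6591 probes detected on all arrays of at least 1 group, 11.6% of all, were tested with limma. A probe is named as called where its fold change was 2 or more and its p, adjusted after Benjamini and Hochberg over the 6591, was below 0.05. Of the Rab, Tbc1d and Golm1 probes 30 (16.2%) passed, 26 for 21 Rab names and 4 for 4 Tbc1d names. Of the 26 Rab probes, 25 (96.2%) were detected on no AAV-V array and entered only through the treated arrays, against 39.7% of all probes tested. The number of Rab probes called higher is therefore set in part by the filter and is given without being read as a result. Where a group had no detection, only a least fold change is measured, from the lowest detected signal of those arrays. For such probes the fitted value, its standard error and p set the brighter group against background readings. They are printed below as a description and not as support for a difference. After scaling this lowest signal lay between 3.77 and 3.94 (log2) on AAV-V arrays, above nearly all Rab signals on those arrays. Over all probes tested the median log2 fold change against AAV-V was 0.64 (AAV-GP73) and 0.41 (AAV-V HFD), and it was 1.63 and 1.36 when the 75th percentile of all probes was used for scaling.

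Golm1 itself was not measurable. Its processed signals were 1.64, 1.62 and 2.06 on AAV-V arrays, 1.68, 1.81 and 1.51 on AAV-GP73 and 1.71, 1.83 and 2.74 on AAV-V HFD. All 9 were not well above background, the groups overlapped, and the AAV-GP73 arrays were not brighter than the others. The probe lies far along the transcript, and whether the virus carried this stretch is not given in the sources used here, so the probe does not check the labels.

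The study measured GAP activity of GP73 on a panel of Rab proteins and reported the highest activity on Rab23. Names of that panel, with its Rab8 read as both Rab8a and Rab8b, matched 14 genes and 24 probes, 13 of which were never detected. No probe of Rab8b, Rab13, Rab21, Rab23, Rab33a or Rab34 was detected on any array. Rab23, a regulator of Hedgehog signalling, had 2 probes at chr1:33796143-33796202 and chr1:33796952-33797011, and Tbc1d20, a GAP for Rab1, also had 2 that were never detected. The signals of Rab8b, Rab13, Rab21, Rab23, Rab33a, Rab34 and Tbc1d20 lay between 1.22 and 8.78 before scaling. Rab20 was detected on 1 AAV-GP73 array and Rab24 on 1 AAV-GP73 and 2 AAV-V HFD arrays, too few to test. The panel's other 6 names, Rab1b, Rab2a, Rab7, Rab8a, Rab9 and Rab11a, had 9 probes tested, of which 8 were called higher in AAV-GP73 than in AAV-V and 4 in AAV-V HFD, with none called lower. These 9 probes had no complete detection in AAV-V, and of all probes tested 33.9% and 25% were called higher, so nothing is read from the count.

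Between AAV-GP73 and AAV-V, 19 of the 26 Rab probes were called higher and none lower, where the shares over all 6591 probes were 33.9% higher and 17.9% lower. Together with Tbc1d22a these were 20 probes, and all 20 turned in sign when the raw signal was corrected by normexp with an offset of 50, an amount above the mean processed signal of 18 of the 20 in AAV-GP73. With an offset of 1, chosen after seeing this, none of the 20 turned and 5 stayed called (Rab1, Rab43, Rab11a, Rab9 at base 1267 and Rab14 at base 2962). Under the 75th percentile of all probes 66.4% of all probes were called higher, as were all 26 Rab probes. The least fold change reached 2 for 3 Rab probes, against 4.05% of all probes tested, and it was above 1 for 9.

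Rab1, known as Rab1a in current names, directs traffic from the endoplasmic reticulum (ER) to the Golgi, and it had the largest fitted difference. At base 1067 its scaled log2 signals were 1.86, 1.64 and 1.71 in AAV-V, 4.96, 4.93 and 5.15 in AAV-GP73 and 4.73, 4.55 and 4.93 in AAV-V HFD. Before scaling the signals were 1.81, 1.45 and 1.79 in AAV-V and 41.4, 41.3 and 60.3 in AAV-GP73. The AAV-V arrays lay far below both other groups, without detection, so the fitted value, standard error and p rest on background readings there. AAV-GP73 was at least 2.22-fold higher than AAV-V (fitted log2 value 3.27, standard error 0.25, adjusted p = 7.94e-06), and the value was -0.15 with normexp.

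Rab43, a Rab of the Golgi, gave 2.77, 2.47 and 2.30 in AAV-V, 4.72, 5.47 and 5.41 in AAV-GP73 and 4.16, 4.98 and 4.42 in AAV-V HFD by its probe at base 4531. It was at least 2.54-fold higher in AAV-GP73 than in AAV-V (fitted log2 value 2.69, standard error 0.32, adjusted p = 8.77e-05, and -0.14 with normexp). Its other probe, at base 542, was never detected. Of the 7 probes tested for Rabs of the ER and Golgi, 6 were called higher in AAV-GP73, for Rab1, Rab2a, Rab6a, Rab18 and Rab43, all 6 turning in sign with normexp. Rab6a, which works in transport within and from the Golgi, was at least 1.28-fold higher (fitted log2 value 1.78). Rab1b, the near relative of Rab1 and the only Rab with detection in AAV-V, did not pass, with 4.09, 2.64 and 3.86 in AAV-V, 3.66, 3.40 and 3.76 in AAV-GP73 and 3.60, 3.64 and 3.80 in AAV-V HFD (log2 difference 0.08, adjusted p = 0.863). The 3 groups overlapped.

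Rab9, which acts in transport from late endosomes to the Golgi, had the highest least fold change of the family. Its probe at base 1267 gave 2.94, 3.12 and 3.44 in AAV-V, 4.87, 5.41 and 5.69 in AAV-GP73 and 4.51, 4.37 and 3.94 in AAV-V HFD. The groups did not overlap, with AAV-GP73 highest and AAV-V, which had no detection, lowest. AAV-GP73 was at least 2.77-fold higher than AAV-V (fitted log2 value 2.16, standard error 0.30, adjusted p = 0.000181, and -0.03 with normexp). The probe at base 841 gave a least value of 1.24-fold. Of the 7 probes tested for Rabs of late endosomes and lysosomes 6 were called higher, for Rab7, Rab9, Rab12 and Rab32, all with a sign that turned under normexp. Rab29 (log2 difference 0.80, adjusted p = 0.0414) missed the fold limit.

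Rab5a, Rab5b and Rab5c mark early endosomes, and Rab11a, Rab14, Rab4a and Rab22a serve sorting and recycling. Of their 9 probes tested, 5 were called higher in AAV-GP73, and each turned in sign with normexp. Rab11a gave 1.68, 1.61 and 1.68 in AAV-V, 3.47, 4.31 and 4.67 in AAV-GP73 and 3.24, 3.34 and 3.36 in AAV-V HFD, and was at least 1.22-fold higher in AAV-GP73 than in AAV-V (fitted log2 value 2.49, adjusted p = 0.000116). The AAV-GP73 arrays lay above all others. For Rab5a, with a fitted value of 2.02 (adjusted p = 0.000227), no least fold change above 1 could be stated, because the lowest detected signal of the AAV-V arrays lay above its mean in AAV-GP73. The same held for Rab10 and Rab8a, the exocytic Rabs tested, and for Rab18, Rab32, Rab12, Rab5b and Rab7. Rab28, Rab5c, Rab4a and Rab22a gave log2 differences of 0.04, 0.40, 0.75 and 0.88, which did not pass.

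**Figure D2:**
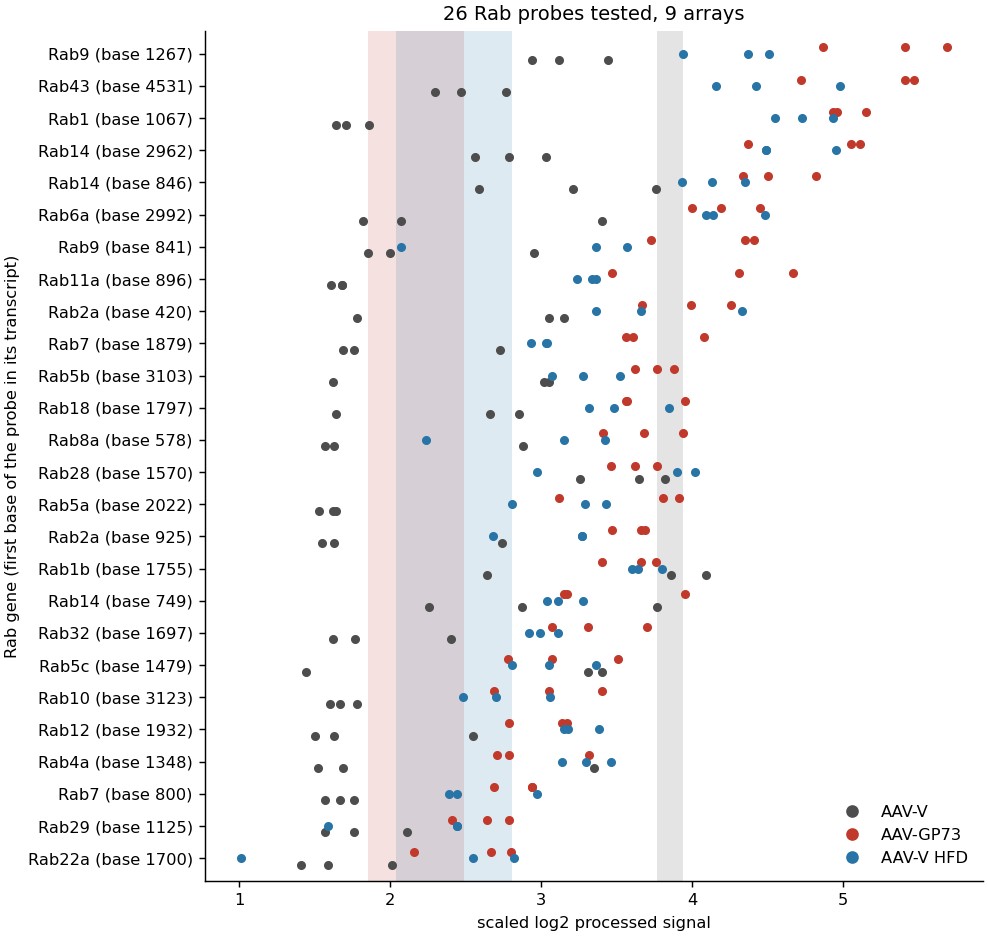
Scaled log2 processed signal of the 26 Rab probes tested, 1 point per array in 3 colours for the groups, ordered by the AAV-GP73 mean. Vertical bands span the lowest detected signal of the arrays of each group in the same colour. AAV-V points lie left of their band for nearly all probes, so their true level is not known, and the direction seen here turned under normexp with an offset of 50 for the probes called.

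Of the 4 Tbc1d probes tested, those of Tbc1d8 and Tbc1d22b were called lower in AAV-GP73 than in AAV-V, that of Tbc1d22a higher, and that of Tbc1d31 did not pass. Their sign held under every scaling and background setting for Tbc1d8 and Tbc1d22b and turned with normexp at an offset of 50 for Tbc1d22a. Over all probes that offset gave 152 higher and 741 lower calls in AAV-GP73 against AAV-V. Whether a sign held or turned under it is therefore given as a description and not as support. Tbc1d8, a protein with a TBC domain, gave 7.59, 8.0 and 8.20 in AAV-V, 6.07, 5.29 and 5.01 in AAV-GP73 and 6.0, 5.66 and 6.23 in AAV-V HFD at base 3771. All AAV-V arrays lay above all others, and the other groups overlapped. Before scaling its signals were 95.9, 119 and 160 in AAV-V and 89.2, 53.0 and 54.7 in AAV-GP73, so it was lower although those arrays were brighter. Against AAV-V this was a log2 fold change of -2.48 in AAV-GP73 (standard error 0.33, adjusted p = 0.000149). It stayed called with normexp (-1.67) and under the 75th percentile of all probes (-1.48), and it missed the fold limit under spike-in scaling (-0.80, adjusted p = 0.033).

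Tbc1d22b, a Golgi protein related to Tbc1d22a, gave 4.98, 4.84 and 5.29 in AAV-V, 3.38, 2.70 and 2.85 in AAV-GP73 and 3.46, 2.73 and 3.89 in AAV-V HFD at base 3423. After scaling, the AAV-V arrays were again above all others, while before scaling they overlapped with both other groups. The scaling shifts were 0.87 to 1.1 (log2) on AAV-V arrays, -0.77 to -0.41 on AAV-GP73 and -0.76 to -0.03 on AAV-V HFD. The log2 fold change in AAV-GP73 was -2.06 (standard error 0.34, adjusted p = 0.000388), and it was not called under spike-in scaling (-0.38, adjusted p = 0.309) or normexp with an offset of 1 (-1.34, adjusted p = 0.0751). Tbc1d22a, its paralog, ran the other way, with 1.49, 1.62 and 1.65 in AAV-V, 3.22, 3.63 and 4.11 in AAV-GP73 and 2.54, 3.29 and 2.32 in AAV-V HFD. It was called higher in AAV-GP73 (fitted log2 value 2.07, adjusted p = 0.000331), had no detection in AAV-V and no least fold change above 1, and turned to -0.48 with normexp.

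Tbc1d31, a protein of centriolar satellites, was detected on all 9 arrays at base 3405, with 8.60, 6.93 and 7.35 in AAV-V, 6.37, 7.18 and 6.71 in AAV-GP73 and 6.91, 7.55 and 7.28 in AAV-V HFD. The groups overlapped. Its log2 fold changes of -0.87 (adjusted p = 0.0842) and -0.38 (adjusted p = 0.454) did not pass. The first was -0.38 without AAV-V replicate 1 and -1.22, past both limits, without AAV-V replicate 2. Tbc1d8 and Tbc1d31 were the only probes of the family detected on all 9 arrays. Their median log2 fold change against AAV-V was -1.67 (AAV-GP73) and -1.17 (AAV-V HFD), beside -0.11 and -0.26 for all 2667 such probes, and it was 0.01 and 0.17 under spike-in scaling, where that of all such probes rose to 1.57 and 1.08.

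**Figure D3:**
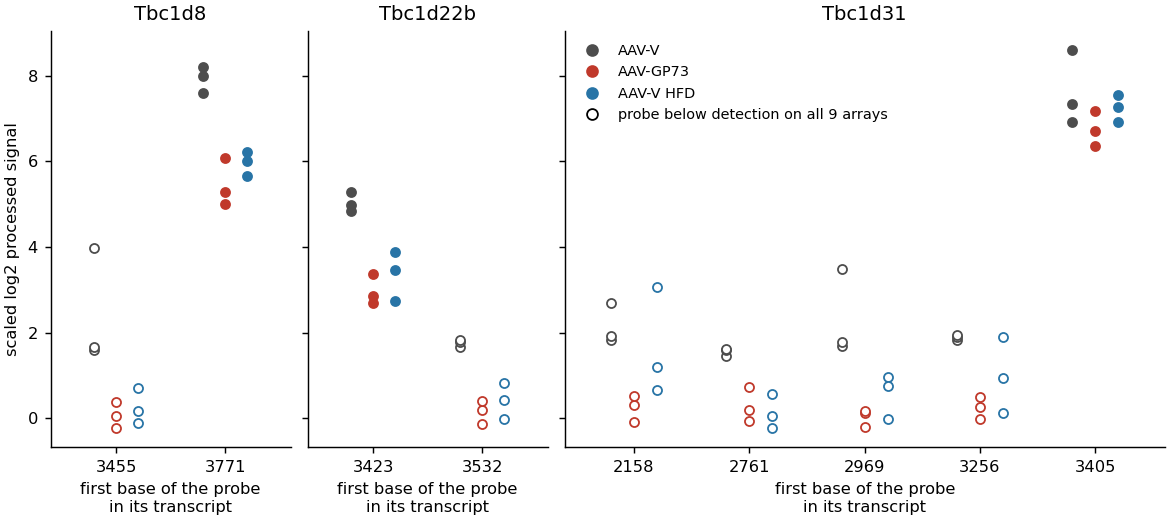
Scaled log2 processed signal of every probe of Tbc1d8, Tbc1d22b and Tbc1d31, 1 point per array, by the first base of the probe in its transcript. Filled points belong to probes detected on 8 or 9 arrays and open points to probes detected on none. In each gene 1 probe carried the signal, and those of Tbc1d8 and Tbc1d22b lay higher on the AAV-V arrays.

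The value of each of these Tbc1d genes rested on 1 probe. The other Tbc1d8 probe, at base 3455 of another transcript, was detected on no array, nor was the other Tbc1d22b probe, which starts 95 bases further along the chromosome. Of the 5 probes of Tbc1d31 4 were never detected, and the detected probe is assigned to a predicted transcript. Rab genes with several probes differed in the same way. The 3 tested probes of Rab14 gave log2 differences of 0.46, 1.37 and 2.05 at bases 749, 846 and 2962 in AAV-GP73, with calls for the latter pair, and 3 more Rab14 probes were never detected. Rab1 had 3 probes, of which that at base 233 was detected on 1 array and another on none. Beside its probes with log2 differences of 1.31 and 1.63, Rab2a had another that was detected on none.

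The high-fat diet gave a like list against the same AAV-V arrays. Between AAV-V HFD and AAV-V, 14 Rab probes and Tbc1d22a were called higher, and Tbc1d8 and Tbc1d22b lower, where 25% of all probes were called higher and 16.9% lower. All 15 higher calls turned in sign with normexp at an offset of 50, and 3 with an offset of 1, where Rab1 alone stayed called (1.36). Under the 75th percentile of all probes 58.3% of all probes and all 26 Rab probes were called higher. No Rab probe reached a least fold change of 2, which 133 of the 2618 probes without detection in AAV-V did, and nothing is read from this. All 3 AAV-V HFD arrays sat on a second slide with its own scan, which means that slide and diet are confounded and cannot be told apart. AAV-V and AAV-GP73 shared a slide, each in a column of its own.

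Rab1 was at least 1.84-fold higher in AAV-V HFD than in AAV-V (fitted log2 value 3.00, standard error 0.25, adjusted p = 8.11e-05, and -0.31 with normexp), Rab14 at base 2962 at least 1.72-fold, Rab43 at least 1.58-fold, Rab9 at base 1267 at least 1.34-fold and Rab6a at least 1.30-fold, each of which also turned with normexp. For Rab11a (fitted log2 value 1.66, adjusted p = 0.00162) no least fold change above 1 could be stated. Rab4a was called in AAV-V HFD (log2 difference 1.11, adjusted p = 0.0466) and not in AAV-GP73 (0.75, adjusted p = 0.147), and its groups overlapped with AAV-V in both cases. Tbc1d8 fell by 1.97 on the log2 scale (standard error 0.33, adjusted p = 0.000922), and Tbc1d22b by 1.68 (standard error 0.34, adjusted p = 0.00214). Before scaling, AAV-V HFD and AAV-V overlapped at both probes. The call for Tbc1d22b was lost under the 75th percentile of all probes (-0.72, adjusted p = 0.0755) and under normexp with an offset of 1 (-1.55, adjusted p = 0.0585), and both calls were lost under spike-in scaling (-0.63 and -0.34). The comparisons share the AAV-V arrays, so that their likeness is not a result. Side by side, 14 probes were called higher in both, 6 in AAV-GP73 alone and 1, Rab4a, in AAV-V HFD alone, without a test of the difference in that count. The same counts over all 6591 probes are not given here, so nothing is read from them.

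**Figure D4:**
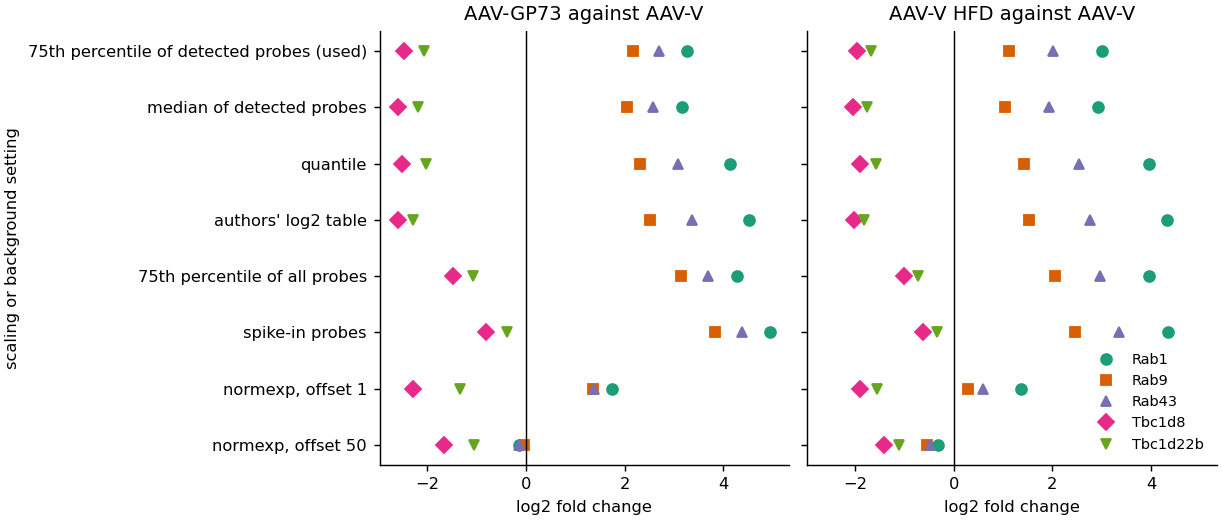
Log2 fold change of Rab1, Rab9 (base 1267), Rab43, Tbc1d8 and Tbc1d22b against AAV-V under 8 ways of scaling or background correction, in AAV-GP73 (left) and AAV-V HFD (right). Tbc1d8 and Tbc1d22b stayed below 0 under each of the 8, while the 3 Rab probes were above 0 under 7 and below 0 with normexp at an offset of 50.

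The direct comparison of the 2 treated groups sets arrays of nearer brightness against each other. It is confounded all the same, because all AAV-V HFD arrays sat on another slide, with another scan, than the AAV-GP73 arrays. The groups also differed in both insert and diet. Slide, scan, insert and diet cannot be told apart in the differences below, and the part of each was not tested. None of the 30 probes was called between AAV-GP73 and AAV-V HFD by limma, where 2.67% of all probes were, and 5 of the 30 had an unadjusted p under 0.05. The share of all probes with such an unadjusted p is not given here, so nothing is read from that count. Those 5 were all higher in AAV-GP73. Rab9 was higher by a log2 difference of 1.05 at base 1267 (95% interval 0.39 to 1.71, adjusted p = 0.0948) and 1.17 at base 841 (0.23 to 2.10, adjusted p = 0.19), and at both probes all 3 AAV-GP73 arrays lay above all 3 AAV-V HFD arrays. Tbc1d22a followed with 0.94 (0.22 to 1.65, adjusted p = 0.174), Rab11a with 0.84 (0.15 to 1.52, adjusted p = 0.198) and Rab7 at base 1879 with 0.75 (0.05 to 1.45, adjusted p = 0.273). The intervals of the other 25 probes included 0. For Rab1 the difference was 0.27, for Tbc1d8 -0.51 and for Tbc1d22b -0.38. The methods' t-test on the same values, at an unadjusted p, called 1 of the 30, Rab9 at base 1267, where it called 389 of all 6591 probes.

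**Figure D5:**
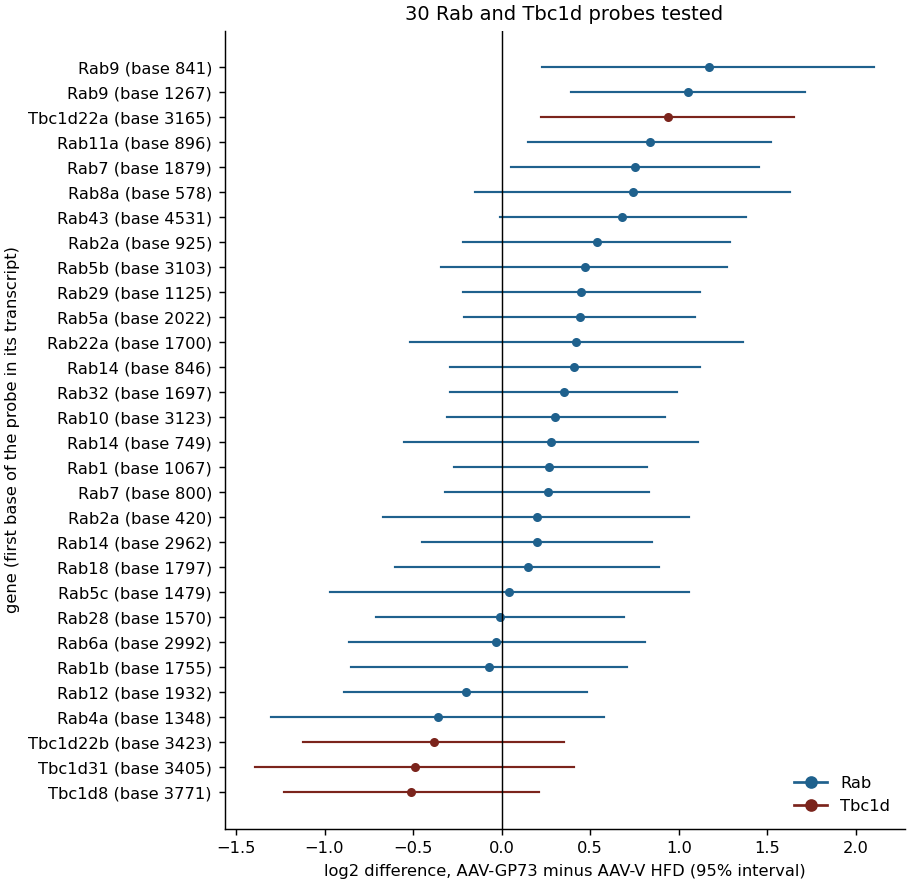
Log2 difference between AAV-GP73 and AAV-V HFD for the 30 probes tested, points with 95% intervals from the limma fit, Rab in blue and Tbc1d in red. The intervals of 5 probes, for Rab9 (2 probes), Tbc1d22a, Rab11a and Rab7, lie above 0, and none passed after adjustment. The groups sat on different slides with different scans.

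Other genes of the Rab cycle were read from lists of names. Of 16 probes tested for GEFs, AAV-GP73 had 6 higher and 3 lower calls against AAV-V, and AAV-V HFD had 4 and 2. These shares lay near those of all probes, 33.9% higher and 17.9% lower in AAV-GP73 and 25% and 16.9% in AAV-V HFD, which are also the background for the counts of the lists that follow. Over all lists read here, markers included, AAV-GP73 had 33 probes called against AAV-V and AAV-V HFD had 20, and 19 and 9 of them turned in sign with normexp at an offset of 50. Dennd4b, a GEF of the DENN family detected on all 9 arrays, was lower in both under every scaling and background setting (log2 fold changes -2.13 and -1.89, adjusted p = 0.000163 and 0.000609), and 1 of the 2 Dennd4a probes tested was lower in both (-1.04 and -1.72) except that its AAV-GP73 value was 0.64 under spike-in scaling. The other Dennd4a probe, detected on all 9 arrays, was not called (-0.30 and -0.72, adjusted p = 0.475 and 0.11). A probe of Dennd5b was higher in AAV-GP73 (1.78, adjusted p = 0.000707) and kept its sign under these settings, while the other probe tested for the gene gave -0.07 (adjusted p = 0.862). Of 3 probes tested for other Rab GAPs, Evi5 (1.60, adjusted p = 0.000856) and Tbck (1.15, but -0.68 with normexp) were called higher in AAV-GP73 and none in AAV-V HFD. Of 3 tested for Rab chaperones and prenylation, Gdi2, which holds inactive Rabs in the cytosol (1.25, adjusted p = 0.0254), and Rabggtb, a subunit of the enzyme that attaches their lipid anchor (1.35), were called higher in AAV-GP73, with -0.06 and -0.61 under normexp, and none in AAV-V HFD. Of 6 probes tested for effectors, none was called in AAV-GP73, and Mical1 (-1.10, but 0.24 under spike-in scaling) and Rilp (-1.79), which binds active Rab7, were called lower in AAV-V HFD. Of 18 probes of Golgi membrane proteins, 7 were called higher in AAV-GP73, among them Tgoln1 (1.86), Stx5a (1.72), Man1a (1.67) and Mgat1 (1.57), which were -0.60, -0.44, -0.63 and -0.57 with normexp. In AAV-V HFD 5 were called higher, all turning with normexp, and Golgb1 lower (-1.17, but 0.17 under spike-in scaling). None of the probes of these lists, markers left aside, was called between AAV-GP73 and AAV-V HFD.

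Markers placed the samples as liver, and some of them moved with the groups. Of 21 probes of hepatocyte genes, 17 were detected on all AAV-V arrays, 18 on all AAV-GP73 arrays and 17 on all AAV-V HFD arrays, and the summed scaled signal lay between 23000 and 36400, 23300 and 30900, and 14400 and 22900. Of 7 probes of erythroid genes all were detected on some array, and the sum lay between 409 and 1020 in AAV-V, 3510 and 17500 in AAV-GP73 and 687 and 1160 in AAV-V HFD. Of 22 stellate cell probes, of which 17 were never detected, the sums were 151 to 283, 53.5 to 84.5 and 45.9 to 82.2. For Kupffer cells (14 probes, 6 never detected) they were 503 to 547, 394 to 500 and 332 to 483, for endothelial cells (14 probes, 10 never detected) 61.4 to 76.7, 42.8 to 50.6 and 29.6 to 38.5, for lymphocytes (16 probes, 15 never detected) 106 to 163, 57.7 to 87.4 and 58.9 to 92.7, and for cholangiocytes (6 probes, 3 never detected) 24.5 to 29.5, 8.68 to 16.0 and 7.72 to 16.4. Sums over undetected probes carry the scaling shift of an array, and single probes could run against them. That shift was 0.87 to 1.1 (log2) on AAV-V arrays, -0.77 to -0.41 on AAV-GP73 and -0.76 to -0.03 on AAV-V HFD. Sums of lists with few detected probes are therefore not read as a difference in cells. Of 5 erythroid probes tested, 4 passed as higher in AAV-GP73 than in AAV-V, and none passed in AAV-V HFD. Those of Hba-a1 (log2 fold changes 3.85 and 2.95) and Hba-a2 (3.85), detected on all 9 arrays, kept 3.66, 1.70 and 3.63 with normexp. These 3 were also called higher in AAV-GP73 than in AAV-V HFD. Hbb-b2 (2.27), without detection in AAV-V, turned to -0.41 with normexp, and Alas2 (0.75) was not called. Clec4g, the endothelial probe tested, was called higher in AAV-GP73 than in AAV-V, where it had no detection (fitted log2 value 2.59, adjusted p = 0.0017, at least 1.5-fold, and -0.39 with normexp). Clec4f, a Kupffer cell marker without detection in AAV-V, was also called higher there (1.00, adjusted p = 0.0211, at least 1.01-fold, and -0.57 with normexp). It was the only call among the 5 Kupffer cell probes tested. Cd5l (-0.16) and Itgam (-0.46), both detected on all 9 arrays, and Csf1r (0.77) and Marco (0.96) were not called. Des, a stellate cell marker detected on all 9 arrays, fell against AAV-V in both groups (-2.14 and -2.31, and -1.29 and -1.43 with normexp). Of 18 hepatocyte probes tested, 5 rises and 1 fall passed in AAV-GP73, and 3 rises and 1 fall in AAV-V HFD. Among them Hnf4a, detected on all 9 arrays, rose by 2.46 and 1.40, and by 1.23 and 0.38 with normexp. The part of blood and of these other cells in the Rab and Tbc1d values was not tested. In whole liver, fewer cells of a type and less RNA per cell cannot be told apart.

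Composition was compared between detected and undetected probes, as a description. Median GC content was 41.7% for the 47 probes detected on any array and 42.5% for the 138 never detected, beside 45% and 41.7% for all probes. AATAAA occurred on the strand of the probe in 10 of the 47 (21.3%) and 15 of the 138 (10.9%), beside 13.8% and 8.75% of all probes, and its reverse complement TTTATT in 3 and 6. Promoter windows from RefSeq (GRCm38.p6) of 300 bases were at hand for 73 of the genes. The motif GGGCGG, or CCGCCC on the other strand, was found in 19 of 27 windows (70.4%) of genes tested and in 42 of 65 (64.6%) of the others, beside 35.7% of all windows, and the median number of CG pairs was 23, 20 and 7. A match describes the letters of a window and is no site of a factor.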

How the data were processed

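RNA of 9 mouse livers was hybridised to Agilent mouse gene arrays with 1 colour (Cy3), 3 per group, and the groups and replicate numbers are those of the labels. The intensity values are the deposited processed signals, which per the file headers Feature Extraction 12.0.3.1 had corrected for a spatial background and a trend. Nothing had been done to align the arrays with each other. The submitters' processing notes name version 10.7 and limma. The authors also deposited log2 values, used only as an alternative; how these were normalised is not given in the sources used here, and their scale matches log2 intensity. Probe names and mm9 coordinates are those of the files, whose gene names can be old, and 142 of the 185 probes matched a RefSeq transcript (GRCm38.p6) for current names.

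Control spots and outlier spots were left out, which kept 59305 spots and 56605 probes after spots of a probe were averaged (194 spots for the 185 probes examined). No spot was saturated. Signals were set on the log2 scale, scaled as the text describes, and tested in limma 3.58.1 (R 4.3.3, package data.table, version 1.17.8) with all 3 groups in 1 fit. The p values given as adjusted are those of limma's moderated test over the 6591 probes. Where no array of a group detected a probe, the least fold change was taken from the mean of the brighter group against the mean, per array, of the lowest detected signal or the probe's own, whichever was higher. Genes were named where they were Golm1, on the panel of Rab proteins, measured on all 9 arrays, among the 5 largest rises or falls called in a comparison, or had probes that disagreed, and Tbc1d20 was always named. The members, lists and tests were chosen with earlier results of these data known. Fits were tested on simulated data. Alternatives were other scalings (75th percentile of all probes, quantile, 350 spike-in spots, median of detected probes), normexp background correction, the authors' table, other filters on dim probes, the brightest probe of a gene, the methods' t-test, fits on 2 groups, a trended robust fit, the replicate number as a block, no fold limit and leaving out each array. The number of arrays limits the precision.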

Additional observations from a re-analysis of the deposited data

Results flagged for a closer look

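Of the 185 probes, 17 were detected on some array and not tested, beside 4748 over the whole array. Listed here are the 15 with no detection on any AAV-V array, a choice that sets their pattern. Tbc1d1 and Tbc1d2, each detected on 1 AAV-V array, are given under the other observations. The 15 were detected on too few arrays for a group to be complete, and their differences were not tested. How many of the 4748 lacked detection in AAV-V is not given here. On 3 arrays each were Rab11b, a recycling Rab, and Rab35, which acts in endocytic recycling, both on 2 AAV-GP73 and 1 AAV-V HFD arrays, and Rab24 and Tbc1d7, a partner of the TSC proteins, both on 1 AAV-GP73 and 2 AAV-V HFD arrays. On 2 arrays, 1 of each treated group, were Rab7b and the Rab4a probe at base 620. On 1 AAV-GP73 array were Rab20, Rab30, Tbc1d25, 1 of the probes of Tbc1d16 (base 6927) and single probes of Rab1 (base 233), Rab22a (base 4291) and Rab29 (base 885). On 1 AAV-V HFD array were Rab17 and the Tbc1d16 probe at base 2817. The AAV-V arrays had the lower share of detected spots over the whole array, between 10.2% and 10.7%, and its part in these numbers was not tested.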

How the results depend on the processing

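The 30 probes gave 22 calls for AAV-GP73 against AAV-V, 17 for AAV-V HFD against AAV-V and 0 between the treated groups. Leaving out 1 array at a time gave 21 to 22, 12 to 18 and 0. The replicate block gave 22, 17 and 0, and residuals of arrays with the same number correlated between -0.11 and 0.17 (2 of 9 above 0.1), so the numbers were not treated as pairs. In AAV-V HFD the 75th percentile of all probes gave 28 calls, spike-in scaling 27 and the methods' t-test after adjustment 10. Over all probes these settings called 4039, 4518 and 1696, where the main setting called 2767. Between the treated groups that t-test without adjustment gave 1, where 389 of all probes were called. With no filter on dim probes there were 148 calls (20 higher, 128 lower) and 137 (15 higher, 122 lower), where 47085 (44727 lower) and 45130 (43390 lower) of all 56605 probes were called. With probes detected on all 9 arrays there were 1 and 1, where fewer probes were tested and 1250 and 1086 of all such probes were called. Normexp left 2 and 2 calls, and with an offset of 1, chosen after seeing the data, 6 and 2. Over all probes the calls were 893 and 966 with normexp, and 1412 and 938 with an offset of 1. The cause was not tested.

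The median of Tbc1d8 and Tbc1d31, -1.67 and -1.17, was -1.83 to -1.51 and -1.33 to -1.01 with an array left out, -0.68 and -0.22 under the 75th percentile of all probes, 0.01 and 0.17 under spike-in scaling, and -1.16 and -0.88 with normexp. Over all probes tested, the split of higher to lower calls was 2234 to 1182 (AAV-GP73) and 1650 to 1117 (AAV-V HFD). Those splits became 4375 to 418 and 3844 to 195 under the 75th percentile of all probes, 5121 to 93 and 4440 to 78 under spike-in scaling, and 152 to 741 and 80 to 886 with normexp.

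The probes called higher turned in sign with normexp at an offset of 50, and they are listed by the comparison in which they were called. In both comparisons, AAV-GP73 first, these were Rab1 (-0.15, -0.31), Rab10 (-0.62, -0.80), Rab11a (-0.37, -0.71), Rab12 (-0.66, -0.76), Rab14 at base 2962 (-0.30, -0.47), Rab18 (-0.54, -0.68), Rab2a at bases 420 (-0.53, -0.70) and 925 (-0.57, -0.82), Rab32 (-0.64, -0.83), Rab43 (-0.14, -0.49), Rab5a (-0.51, -0.75), Rab6a (-0.46, -0.55), Rab9 at base 1267 (-0.03, -0.55) and Tbc1d22a (-0.48, -0.81). Called in AAV-GP73 alone were Rab14 at base 846 (-0.41), Rab5b (-0.56), Rab7 at bases 800 (-0.66) and 1879 (-0.55), Rab8a (-0.52) and Rab9 at base 841 (-0.48), and in AAV-V HFD alone Rab4a (-0.74). These probes also turned in the comparison that did not call them, as Rab8a in AAV-V HFD (0.92 to -0.79) and Rab4a in AAV-GP73 (0.75 to -0.65). Probes called in neither, such as Rab1b, could turn as well. With an offset of 1, Rab2a at base 925 (-0.11), Rab32 (-0.19) and Tbc1d22a (-0.06) turned among the probes called in AAV-V HFD. Calls near the limits changed with 1 array: in AAV-V HFD that of Rab4a was lost on leaving out any of 5 arrays, and 12 calls were left without AAV-V HFD replicate 2. Most Rab probes had no detection in AAV-V, so a fold change there is a bound.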

Other observations

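Besides the probes tested, 2 Tbc1d probes were detected on an AAV-V array. Tbc1d1, a GAP linked to glucose transport in muscle, was detected on 1 AAV-V and 2 AAV-V HFD arrays by its probe at base 1097, and Tbc1d2 on 1 AAV-V array and no other by its probe at base 4235.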
